A study of Mus musculus with 6 samples.

Results

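Slc26a7, an anion transporter, was examined with a group of other anion and acid-base transport genes in cells sorted from adult mouse ovaries. The group held 8 genes, chosen by name: Slc26a2, Slc26a6, Slc26a7 and Slc26a11 of the SLC26 anion transporters, Slc4a2, Slc4a4 and Slc4a7 of the SLC4 bicarbonate transporters, and the carbonic anhydrase Car2. Every probe set (a group of array probes read as 1 value) annotated to 1 of these symbols alone was taken. This gave 14 probe sets for 7 genes, of 18193 genes named on the array, and Slc4a7 is without a value because no probe set carried its symbol alone. The genes were chosen with earlier values of the same comparison known, so their differences between groups are a description: counts of calls are given beside the share over all probe sets, and nothing is read from them.

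The study used female Gli1-CreERT2; Rosa-LSL-tdTomato mice of strain 129S6/SvEvTac, aged 2 months at collection. Both groups carried both alleles and both received tamoxifen, which lets the Cre act in cells that express Gli1 at that time and turns on a lasting red reporter in them. In the mesonephros-derived group (3 arrays) tamoxifen was given on 3 fetal days, namely E12.5, then E14.5, then E16.5. In the ovary-derived group (3 arrays) pups received it from P1 to P3 through the lactating dam. The label therefore depends on Gli1 activity at those times, and origin and labelling time cannot be told apart. The labels call both groups theca cells, the steroid-producing layer around follicles, and number the samples without saying that they came from separate animals.

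Cells set their internal pH by moving bicarbonate, chloride and protons across membranes. SLC26 proteins exchange anions such as chloride, bicarbonate, sulfate, oxalate and iodide. SLC4 proteins either exchange bicarbonate for chloride or carry it together with sodium, and carbonic anhydrases supply the bicarbonate by hydrating carbon dioxide. Slc26a7 is best known from acid-secreting cells of stomach and kidney and from the thyroid.

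Some properties of the arrays bear on all values. The same volume of RNA was amplified for every sample although concentrations varied, per the labels. Arrays of the mesonephros-derived group correlated with each other at 0.844 to 0.896 and those of the ovary-derived group at 0.963 to 0.973, with 0.871 to 0.950 between groups. Poly-A spike-in transcripts read 9.80, 10.1 and 2.16 times the ovary-derived mean on mesonephros-derived arrays 1, 2 and 3, against 0.748 to 1.55 times on ovary-derived arrays. All 6 theca and Gli1-lineage markers with a probe set, of 8 listed, lay above the floor on every array. The floor is a signal of 99.4, the 40th percentile of the probe sets' mean log2(signal + 16) over 6 arrays turned back to signal, and stands in for detection calls, which were not used here. The summed signal of these markers was 37173 to 50370 in mesonephros-derived cells and 25394 to 31304 in ovary-derived cells, without overlap. Mean log2 levels were higher in mesonephros-derived cells for 4 of the 6 markers and lower for 2. Cyp17a1 read 3346 to 10577 in mesonephros-derived cells and 619 to 1413 in ovary-derived cells, without overlap. Gli1 read 133 to 579 and 487 to 703, with overlap.

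Slc26a7 gave low signals in mesonephros-derived cells and clear signals in ovary-derived cells. Its probe set with the higher mean on the log2(signal + 16) scale, 1425841_at, read 107, 68.1 and 131 in mesonephros-derived replicates 1, 2 and 3, against 634, 1306 and 1173 in ovary-derived replicates 1, 2 and 3. Every mesonephros-derived array lay near the floor, 1 of the 3 below it, and every ovary-derived array lay well above it, with no overlap. The mesonephros-derived mean was 102 ± 31.9 and the ovary-derived mean 1037 ± 356 (SD, n = 3 each). On the log2(signal + 16) scale used throughout, the difference (mesonephros-derived minus ovary-derived) was −3.13 ± 0.41 (SE from limma), an 8.75-fold lower level. Changes of dim genes come out too small on this scale.

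The other Slc26a7 probe set, 1436279_at, read 263, 1.41 and 178 in mesonephros-derived cells, against 950.4, 920.4 and 1489.8 in ovary-derived cells. Its mean signal was the higher of the pair, at 148 ± 134 in the mesonephros-derived group and 1120.2 ± 320.4 in the ovary-derived group (SD, n = 3 each). The groups again did not overlap, and the spread within the mesonephros-derived group was far wider here, with an SD of 2.18 log2 units against 0.38 in ovary-derived cells. The difference was −3.50 ± 0.90 (SE). It was −2.25 without mesonephros-derived replicate 2, the array that read 1.41. For 1425841_at, leaving out any 1 array gave −3.45 to −2.90.

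Among the 27022 probe sets at or above the floor, the Slc26a7 probe sets had the second (1436279_at) and the fourth (1425841_at) most negative differences, values that were known when the gene was chosen. Neither passed an adjusted p of 0.05 in limma, where 0.0148% of all tested probe sets passed in either direction. The groups did not overlap, with all mesonephros-derived arrays below, for 3366 of the 27022 tested probe sets, and 21.3% had no overlap in either direction. The median difference over all tested probe sets was −0.11.

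**Figure D1:**
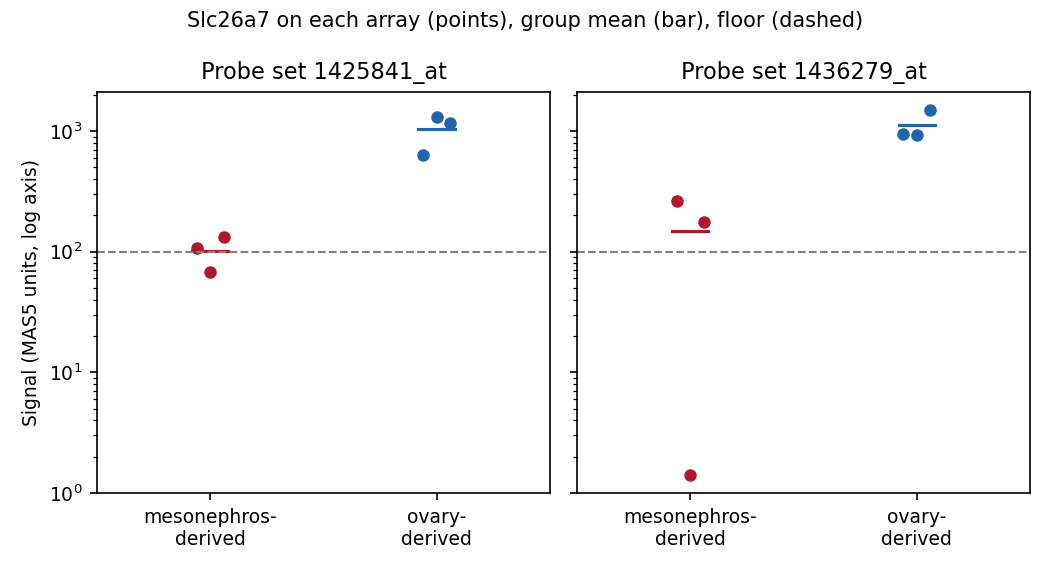
Signal of the 2 Slc26a7 probe sets (log axis) on each array, with mesonephros-derived arrays on the left and ovary-derived arrays on the right of each panel; bars are group means and the dashed line is the floor of 99.4. Mesonephros-derived arrays read 1.41 to 263 and ovary-derived arrays 634 to 1489.8.

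Values that moved beside this difference were as follows. Mesonephros-derived replicate 3, whose poly-A spikes read closest to the ovary-derived arrays at 2.16 times their mean, deviated from the ovary-derived mean of 1425841_at by −2.77 on the log2 scale, against −3.03 for replicate 1 and −3.58 for replicate 2. For 1436279_at these deviations were −2.51 for replicate 3, −1.99 for replicate 1 and −5.99 for replicate 2. The difference with the spike signal as a covariate was −2.82 ± 0.78 (SE) for 1425841_at and −2.26 ± 1.81 (SE) for 1436279_at. Tubule and surface epithelial markers, 9 of 10 with a probe set, summed to 191 to 472 in mesonephros-derived cells and 226 to 461 in ovary-derived cells. None of the 9 lay above the floor on every array and 5 lay below it on all arrays, and their summed levels overlapped between the groups. Endothelial markers, 7 of 7, summed to 3358 to 5436 in mesonephros-derived cells and 5021 to 8079 in ovary-derived cells. Of the 7 differences, 6 were negative and 1 positive. Sox18 (−1.52 ± 0.39) and Robo4 (−1.73 ± 0.48, SE) had no overlap, and Kdr (−2.89 ± 0.92) and Pecam1 (−1.97 ± 0.72) overlapped. Robo4 was below the floor on all 3 mesonephros-derived arrays and on 0 ovary-derived arrays. Macrophage markers, 7 of 8, summed to 1255 to 10590.3 in mesonephros-derived cells and 4951 to 7421 in ovary-derived cells, and Cd14 lay below the floor on all arrays. All 7 had a negative difference on the log2 scale. Csf1r (−2.88 ± 1.11), Adgre1 (−0.65 ± 0.46) and Cd14 (−1.72 ± 0.40, SE) had no overlap between the groups. These were 3 of 7, against 21.3% of all tested probe sets. Mean signals of C1qb (2468.5 against 1967.6) and Lyz2 (1400 against 1366) were higher in mesonephros-derived cells. On mesonephros-derived replicate 1, Csf1r (2.81), C1qa (5.00), Lyz2 (57.7) and Adgre1 (46.4) lay below the floor. On mesonephros-derived replicate 2, which had the highest macrophage sum and the lowest Slc26a7 signal, C1qb read 5589 and Lyz2 3024. Csf1r (615), Adgre1 (97.5) and Cd14 (13.6) read lower on that array than on every ovary-derived array. Granulosa markers, 6 of 7, summed to 4532 to 6316 in mesonephros-derived cells and 4736 to 6299 in ovary-derived cells. Most of each sum was Foxl2, at 3434 to 4626 and 3858 to 5330. Of the 6 differences, 3 were negative and 3 positive. Nr5a2 (−2.04 ± 0.59, SE) had no overlap and Amh (2.10 ± 0.80) overlapped, both with a mean below the floor. Smooth muscle markers, 6 of 6, all above the floor on every array, summed to 45864 to 54908 in mesonephros-derived cells and 17437 to 20328 in ovary-derived cells, with no overlap. All 6 differences were positive and 5 of the 6 had no overlap, against 21.3% of all tested probe sets. Myh11 (1.92 ± 0.18 SE, limma adjusted p = 0.0261) and Tagln (1.48 ± 0.16, adjusted p = 0.0475) were called, against 0.0148% of all tested probe sets. Stroma markers, 6 of 6, also all above the floor on every array, summed to 60866 to 80372 in mesonephros-derived cells and 45620.1 to 50653 in ovary-derived cells. Of the 6 differences, 5 were positive and 1 negative (Pdgfra, −0.02 ± 0.17 SE). Col1a1 (1.00 ± 0.23, mean signal 18966 against 9196) and Nr2f2 (0.33 ± 0.15) had no overlap. These were 2 of 6, against 21.3% of all tested probe sets. The part of smooth muscle, stromal, endothelial, macrophage and granulosa cells in the difference was not tested. In these bulk samples, fewer cells that express a gene and less RNA per cell cannot be told apart.

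The genes whose pattern over the 6 arrays was nearest to 1425841_at were Pianp, Il1b, Mgat4a, Wnt9a and 2210408K08Rik. Likeness was the root mean square difference between log2 profiles, each centred on its own mean, over 11697 genes that were not members. It was 0.32 for Pianp, 0.46 for Il1b, 0.55 for Mgat4a, 0.59 for Wnt9a and 0.68 for 2210408K08Rik, against a median of 1.62 over all genes ranked. All of them necessarily share the group difference of Slc26a7.

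Pianp, a membrane protein that binds the receptor PILRα, read 61.02, 11.3 and 35.6 in mesonephros-derived cells, against 311, 508 and 543 in ovary-derived cells, and was at least 3.96-fold lower, a bound because no mesonephros-derived array reached the floor. Il1b, the cytokine interleukin 1 beta, read 43.0, 15.9 and 38.7, against 429.5, 384 and 289 in ovary-derived cells, at least 3.28-fold lower. Wnt9a, a secreted Wnt ligand, read 85.8, 21.6 and 161 in mesonephros-derived cells, against 528, 591 and 455 in ovary-derived cells. All 5 genes had their lowest mesonephros-derived value in replicate 2, at 11.3 to 21.6 and below the floor. Slc26a7 was also lowest there, and the choice by likeness favours such a match, so nothing is read from it. Mgat4a, which adds branches to N-glycans, had a difference of −2.49 ± 0.60 and 2210408K08Rik one of −2.46 ± 0.53 (SE). Because likeness to Slc26a7 chose these genes, their differences are given with no test.

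**Figure D2:**
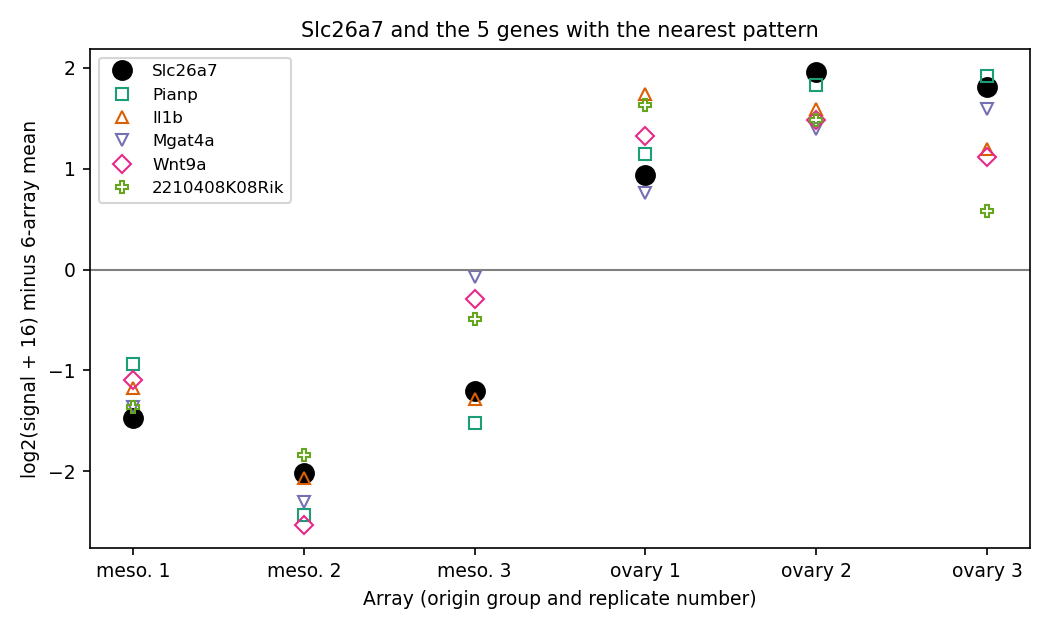
Log2(signal + 16) minus the gene's own mean over 6 arrays (vertical axis) on each array (horizontal axis) for Slc26a7 probe set 1425841_at (filled black) and the 5 nearest genes (open symbols). All lie below 0 on the 3 mesonephros-derived arrays and above 0 on the 3 ovary-derived arrays.

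The other SLC26 members showed no separation of the groups. Slc26a2, the sulfate transporter that supplies sulfate for proteoglycans, had 3 probe sets. The brightest, 1427195_at, read 571, 737 and 416 in mesonephros-derived cells, against 871, 712 and 565 in ovary-derived cells, with overlap and a difference of −0.33 ± 0.31 (SE). This was −0.12 without mesonephros-derived replicate 3 and −0.18 without ovary-derived replicate 1.

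The next Slc26a2 probe set, 1443882_at, read 416, 330.4 and 190.1 in mesonephros-derived cells, against 397, 253 and 306 in ovary-derived cells. Its difference of −0.07 ± 0.40 (SE) turned to 0.01 after median centring. The dimmest, 1421145_at, lay below the floor on all 6 arrays, at 52.2 to 88.8 in mesonephros-derived cells and 74.1 to 91.2 in ovary-derived cells. All Slc26a2 probe sets thus overlapped between the groups.

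Slc26a6, an exchanger of chloride for bicarbonate and oxalate, read 204, 132 and 102 in mesonephros-derived cells, against 153, 140.2 and 169.6 in ovary-derived cells. The mesonephros-derived arrays spanned the ovary-derived ones on both sides, and the difference of −0.12 ± 0.42 (SE) turned to 0.09 without mesonephros-derived replicate 3. Slc26a11, a transporter of sulfate and chloride, read 175, 319.5 and 210.3 in mesonephros-derived cells, against 139, 244 and 143 in ovary-derived cells. Its mesonephros-derived mean was 235 ± 75.2 and its ovary-derived mean 175 ± 59.3 (SD, n = 3 each), with overlap and a difference of 0.39 ± 0.42 (SE). It was the SLC26 member with a positive difference, and the value was 0.16 without mesonephros-derived replicate 2.

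Slc4a2, the anion exchanger AE2 that trades chloride for bicarbonate in most cell types, read 467, 1103 and 1341 in mesonephros-derived cells, against 949, 804 and 1088 in ovary-derived cells. The mesonephros-derived mean was 970.1 ± 452 and the ovary-derived mean 947 ± 142 (SD, n = 3 each), and the difference was −0.08 ± 0.38 (SE). Mesonephros-derived replicate 1 was low and the other two arrays of its group were higher than every ovary-derived array. The difference was 0.37 without replicate 1 and turned positive after quantile normalization.

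Slc4a4, the sodium bicarbonate cotransporter NBCe1 of kidney and pancreas, had 5 probe sets that did not move as 1. The brightest, 1426432_a_at, read 366, 196 and 243 in mesonephros-derived cells, against 158, 232 and 303 in ovary-derived cells, with overlap and a difference of 0.20 ± 0.41 (SE). It turned to −0.03 without mesonephros-derived replicate 1 and to −0.03 without ovary-derived replicate 1. Probe set 1421225_a_at read 35.4, 195 and 107 in mesonephros-derived cells, against 129, 288 and 443 in ovary-derived cells. Its groups overlapped, with a difference of −1.31 ± 0.63 (SE) that was −0.76 without mesonephros-derived replicate 1.

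A further pair of Slc4a4 probe sets had a mean below the floor and no overlap between the groups. Probe set 1434096_at read 3.45, 27.4 and 130.3 in mesonephros-derived cells, against 154, 214 and 191 in ovary-derived cells, a difference of −2.01 ± 0.72 (SE). It was −1.33 without mesonephros-derived replicate 1 and turned to 0.21 with poly-A spikes as a covariate. Probe set 1452071_at read 5.55, 73.2 and 10.9 in mesonephros-derived cells, against 91.8, 143 and 130.1 in ovary-derived cells, a difference of −1.87 ± 0.61 (SE). As no mesonephros-derived array reached the floor, this is a level at least 1.18-fold lower. Ovary-derived replicate 1, at 91.8, also lay below the floor. The last probe set, 1450169_at, lay below the floor on every array, at 25.9 to 54.2 in mesonephros-derived cells and 33.8 to 63.1 in ovary-derived cells.

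The Slc4a4 probe sets were set beside the gene's start sites because their differences were unlike each other. Which transcript each probe set reads is not given in the sources used here. RefSeq (GRCm38.p6) lists 2 start windows for the gene on the plus strand of chromosome 5, of which the 250 bases before each start are shown, with CG dinucleotides in capitals.
Slc4a4 first start, chr5:88887010-88887259: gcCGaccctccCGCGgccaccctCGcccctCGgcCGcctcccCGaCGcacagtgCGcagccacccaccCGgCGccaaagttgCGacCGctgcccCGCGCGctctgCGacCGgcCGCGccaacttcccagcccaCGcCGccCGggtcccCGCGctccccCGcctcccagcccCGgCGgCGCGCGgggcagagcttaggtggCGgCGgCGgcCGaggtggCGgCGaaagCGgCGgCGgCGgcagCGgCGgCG
Slc4a4 second start, chr5:89027716-89027965: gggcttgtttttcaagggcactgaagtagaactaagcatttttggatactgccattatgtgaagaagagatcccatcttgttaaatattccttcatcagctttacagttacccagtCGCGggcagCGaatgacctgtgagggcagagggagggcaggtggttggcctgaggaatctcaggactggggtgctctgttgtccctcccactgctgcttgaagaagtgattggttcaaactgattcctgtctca

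The windows differ in base composition. The first holds 44 CG dinucleotides and 82.0% G and C, and 99.6% of the 32851 windows of all genes hold as many CG or fewer. The second holds 3 CG and 48.8% G and C, and 37.8% of all windows hold as many CG or fewer, against a median of 6. Windows were listed for 4 of the 8 members, 6 windows in all: those of Slc4a2, Slc26a6 and Slc4a7 beside Slc4a4. The GLI motif GACCACCCA, searched on both strands because Gli1 drove the label, was in none of the 6 and in 0.225% of all windows. The SF-1 motif CAAGGTCA, of the nuclear receptor that drives steroid enzymes, was in none of the 6 and in 1.33% of all windows. The motif CCAAT was in the second Slc4a4 window and in the windows of Slc26a6 and Slc4a7, and in 33.8% of all windows. No motif contains another. A motif match or its absence describes only the letters of these windows.

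Car2, the cytosolic carbonic anhydrase II, was dim. It read 45.9, 140.2 and 37.4 in mesonephros-derived cells, against 159.7, 286 and 68.0 in ovary-derived cells, with 2 mesonephros-derived and 1 ovary-derived arrays below the floor. The groups overlapped through mesonephros-derived replicate 2 and ovary-derived replicate 3, and the difference was −1.04 ± 0.65 (SE). It was −0.60 without ovary-derived replicate 2. Red blood cells also hold much Car2, and 0 of 5 erythroid markers with a probe set, of 8 listed, lay above the floor on all arrays. Their sum was 238 to 684 in mesonephros-derived cells and 240.2 to 313 in ovary-derived cells, and Car1 and Slc4a1 were below the floor on every array. Of the 5 differences, 4 were positive and 1 negative. Hba-a1 read 109, 74.8 and 34.1 in mesonephros-derived cells, against 12.1, 19.4 and 12.3 in ovary-derived cells, without overlap. Alas2 read 220, 16.7 and 284, against 171, 184 and 177. Klf1 read 338 on mesonephros-derived replicate 1 and lay below the floor on the others. The part of red blood cells in the Car2 values was not tested.

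**Figure D3:**
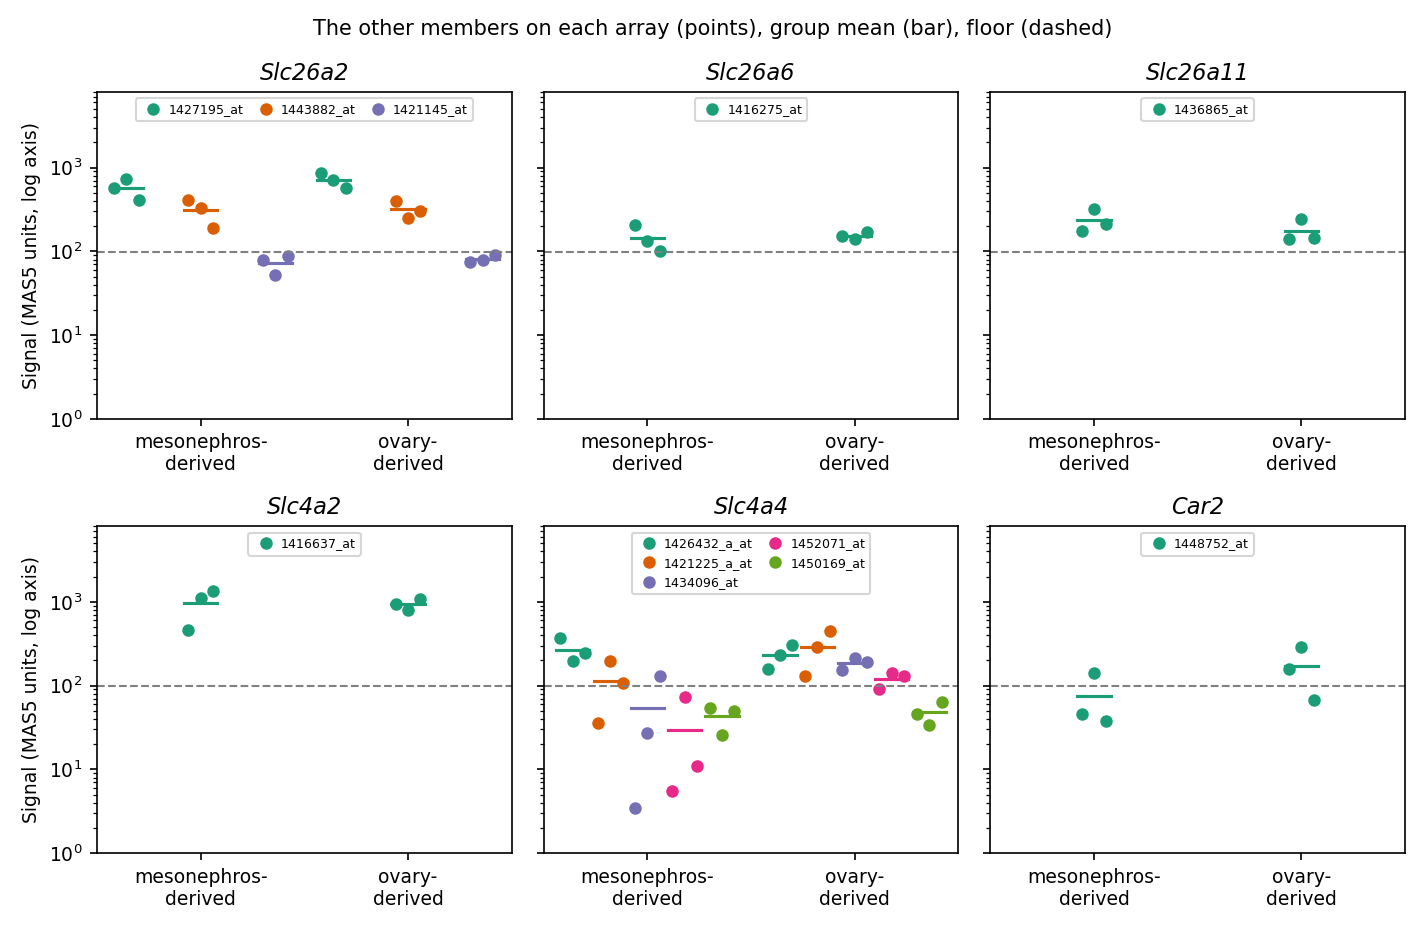
Signal (log axis) of the probe sets of the other 6 measured members on each array, mesonephros-derived left and ovary-derived right in each panel, coloured by probe set; bars are group means and the dashed line is the floor of 99.4. The groups overlap except for Slc4a4 1434096_at and 1452071_at.

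Over all 14 member probe sets, 12 differences were below 0 and 2 were above 0, from −3.50 (Slc26a7) to 0.39 (Slc26a11), with a median of −0.23. The median was −0.12 over the 9 tested ones, against −0.11 over all tested probe sets. It was also −0.12 over the 7 genes, each by its brightest probe set. Of all tested probe sets, 58% had a difference below 0 and 42% above 0. Of the 14, 9 had a mean at or above the floor and were tested, 7 of them below 0 and 2 above, and 0 were called in limma at an adjusted p of 0.05, against 0.0148% of all tested probe sets. The groups did not overlap for 4 member probe sets, the Slc26a7 pair and the dim Slc4a4 pair, all with mesonephros-derived arrays below. Of the 4, the Slc26a7 pair was tested, and 21.3% of all tested probe sets had no overlap in either direction. Quantile normalization or median centring changed the sign of 3 member probe sets, 1 each of Slc26a2, Slc4a2 and Slc4a4 (1450169_at), and of none of Slc26a7.

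**Figure D4:**
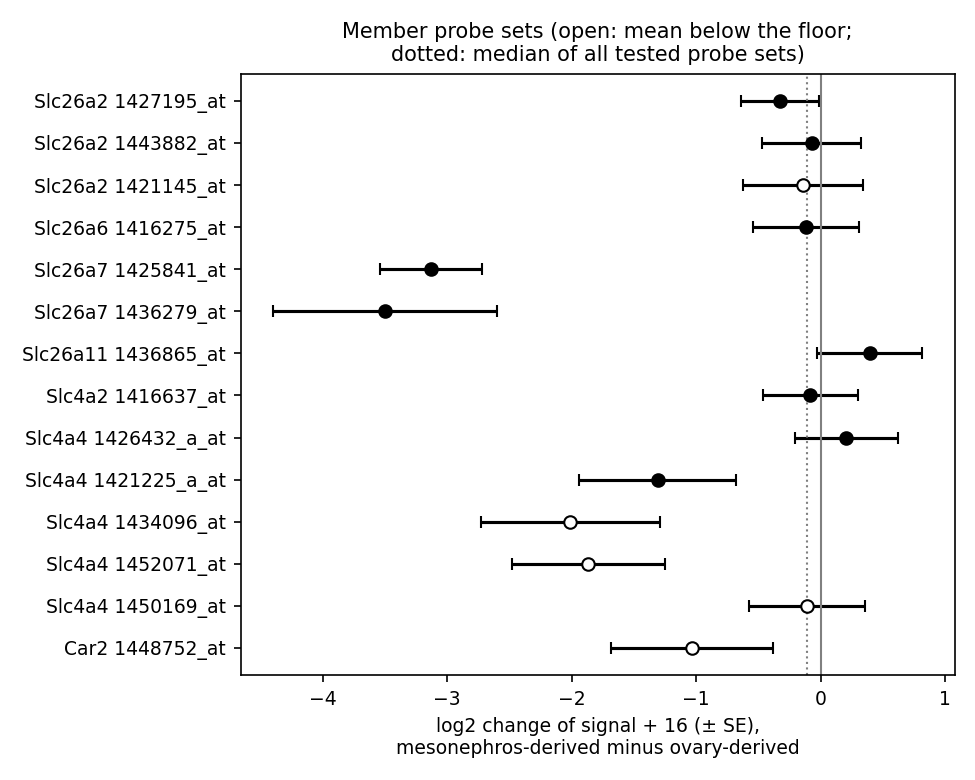
Difference in log2(signal + 16), mesonephros-derived minus ovary-derived, with its SE (horizontal axis), for the 14 member probe sets (vertical axis); open points have a mean below the floor and the dotted line is the median of all tested probe sets, −0.11. The Slc26a7 probe sets lie at −3.13 and −3.50 and the others between −2.01 and 0.39.

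Other genes of ion and acid-base handling, in 9 lists of 135 genes, were read in the same fit, each by its probe set with the highest mean log2 value. Of 80 tested genes, 0 were higher and 0 were lower at an adjusted p of 0.05 over all probe sets (limma), with 7 of the 80 at an unadjusted p of 0.05, against 12.9% of all tested probe sets. The median difference was −0.09, and 21.2% of the 80 had no overlap, close to the 21.3% of all tested probe sets. Of the other SLC26 transporters, 6 of 7 had a probe set, and 0 of them reached the floor by mean log2 value and were tested. Slc26a1, a sulfate transporter, read 6.98, 89.7 and 142 in mesonephros-derived cells, against 147, 131 and 198 in ovary-derived cells. The groups overlapped, with a difference of −1.25 ± 0.72 (SE, fit with no floor). Slc26a8, known from sperm, read 201, 226 and 60.9 in mesonephros-derived cells, against 39.1, 87.6 and 61.7 in ovary-derived cells, also with overlap (1.06 ± 0.59). Both were chosen after their values were seen, because some of their arrays lay above the floor.

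The list of other SLC4 transporters and partners had 5 tested genes, of which Slc4a3 and Slc4a11 are SLC4 genes. Ahcyl1, Ahcyl2 and the adaptor Slc4a1ap are not transporters. The 5 gave 1 positive and 4 negative differences, with a median of −0.17. Slc4a3, another anion exchanger, read 135, 368 and 522 in mesonephros-derived cells, against 172, 249 and 256 in ovary-derived cells (difference 0.40 ± 0.50, SE). Slc4a11 had a difference of −0.15 ± 0.41. Ahcyl1, a regulator of bicarbonate cotransporters, had a difference of −0.17 ± 0.20, and all 3 genes overlapped between the groups. Other tested probe sets stood at −0.45 to −0.29 for Ahcyl1 and at 0.30 for Slc4a3.

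Among 9 other carbonic anhydrases tested, 6 differences were positive and 3 negative, with a median of 0.40. Car9, a membrane-bound enzyme induced by low oxygen, read 238, 779 and 404 in mesonephros-derived cells, against 74.6, 162 and 192 in ovary-derived cells. The groups did not overlap, and the difference of 1.55 ± 0.52 (SE) had a limma adjusted p of 0.311. Car15 read 621, 509 and 154 in mesonephros-derived cells, against 96.8, 188 and 160.1 in ovary-derived cells, with overlap through mesonephros-derived replicate 3 (difference 1.27 ± 0.55, adjusted p = 0.384 in limma). Car2, with a mean below the floor, thus differed in sign from the median of its 9 tested relatives, a difference that was not tested. Relatives with a mean below the floor were not in that median. Their differences ran from −0.66 to 0.85 in the fit with no floor.

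Proton transport genes were mixed. Of 17 V-ATPase subunits tested, the pump that acidifies organelles, 8 differences were positive and 9 negative, with a median of −0.02. Atp6ap2, an accessory subunit, stood at 0.57 ± 0.18 (SE, limma adjusted p = 0.296), with other probe sets from −0.59 to 0.65, and Atp6v0e2 at −1.32 ± 0.51 (adjusted p = 0.355), both without overlap. Of 4 sodium-proton exchangers and scaffolds tested, 2 were positive and 2 negative. Slc9a9, an endosomal exchanger, stood at −0.99 ± 0.58 and Slc9a8, a Golgi exchanger, at 0.53 ± 0.34 with other probe sets from −0.75 to 0.44. Of 5 lactate transport and proton-sensing genes tested, 4 were negative and 1 positive. Slc16a1, the lactate and proton cotransporter MCT1, read 1184, 1131 and 768 in mesonephros-derived cells, against 1675, 1630.4 and 1232 in ovary-derived cells, without overlap (−0.56 ± 0.25, adjusted p = 0.395 in limma). Gpr4, a proton-sensing receptor also known from endothelium, stood at −0.99 ± 0.47 beside the endothelial marker sums given above, whose part was not tested.

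Chloride pathways and sulfate use made up the remaining lists. Of 15 genes tested in the chloride channel list, not all of which are channels, 12 differences were negative and 3 positive, with a median of −0.42. Lrrc8c, a subunit of volume-regulated anion channels, read 159.9, 183 and 309.8 in mesonephros-derived cells, against 461, 480.0 and 366 in ovary-derived cells, without overlap (−0.99 ± 0.37 SE, limma adjusted p = 0.348). Ano1, the calcium-activated chloride channel, stood at −0.59 ± 0.27 with overlap (adjusted p = 0.396). The other tested probe set stood at −0.85 for Lrrc8c and at −1.01 for Ano1. Of 11 cation-chloride cotransporters and kinases tested, 8 were positive and 3 negative, with a median of 0.02, Wnk2 at 1.26 ± 0.64 and Wnk3 at −0.77 ± 0.58, both with overlap.

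Of 14 genes of sulfate activation and use tested, which handle the sulfate that Slc26a2 and Slc26a11 carry, 6 differences were positive and 8 negative. Papss2, which makes the activated sulfate donor, read 2343, 1712 and 2639 in mesonephros-derived cells, against 1106, 989 and 1047 in ovary-derived cells. Its groups did not overlap, and the difference of 1.06 ± 0.23 (SE) had a limma adjusted p of 0.205. Other probe sets of Papss2 stood at 0.27 to 0.40. Slc35b2, which carries that donor into the Golgi, read 502, 385 and 429 in mesonephros-derived cells, against 736, 651 and 748 in ovary-derived cells, without overlap (−0.68 ± 0.27 SE, limma adjusted p = 0.36). Its other tested probe set stood at −1.13.

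**Figure D5:**
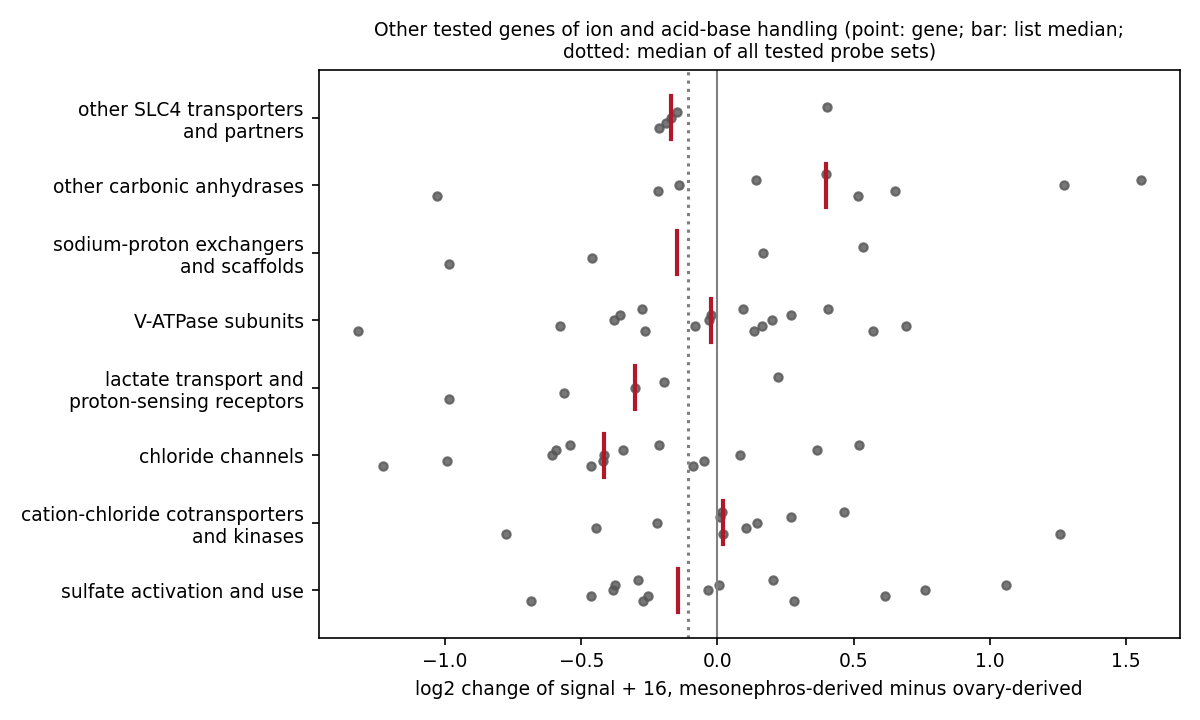
Difference in log2(signal + 16), mesonephros-derived minus ovary-derived (horizontal axis), for the tested genes of 8 lists (vertical axis); each point is a gene, red bars are list medians and the dotted line is the median of all tested probe sets, −0.11. List medians run from −0.42 for the chloride channel list to 0.40 for the other carbonic anhydrases, with single genes from −1.32 to 1.55.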

How the data were processed

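RNA was measured on 6 1-colour arrays, 3 per group. Deposited values are intensities per probe set on a linear scale, made with MAS5 per the submitters' processing notes, with no version or settings (not given in the sources used here). Amplified RNA was set by volume and not by mass, so its mass could differ between samples, per the labels' protocols. The 2% trimmed mean was 500.0 on every array, so no further normalization was applied.

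Of 45101 probe sets, 64 controls were left out, 34945 had 1 symbol, 932 several and 9160 none. Values were moved to log2(signal + 16). Probe sets whose mean log2 value lay below the 40th percentile were not tested, which left 27022, and values of members below it come from a fit with no floor. The comparison used lmFit and eBayes with trend of limma 3.58.1 (R 4.3.3), with Benjamini-Hochberg adjustment over all probe sets tested. The procedure was tested on simulated data with the same spread in both groups. The real arrays differed in root mean square deviation from their group means. It was 0.519 to 0.734 on mesonephros-derived arrays and 0.214 to 0.282 on ovary-derived arrays. The simulation therefore cannot show how the fit handles unequal spread. No array pair was identical. The number of arrays limits the precision, and since no label names separate animals, p-values reflect a spread that may be technical.

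Members and lists were chosen with earlier results of these data known. Named genes were all members, every list gene past an adjusted p of 0.05 or otherwise the 2 with the smallest p, and the 5 genes nearest to Slc26a7. Of marker genes, those at the floor were eligible. Slc26a1, Slc26a8, Slc4a11 and all other marker genes given, Csf1r and Adgre1 among them, were named after their values were seen. Alternatives covered the pseudocount, floor, scaling, choice of probe sets, eBayes options, array weights, a replicate block, spike signal and leaving out each array.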

Additional observations from a re-analysis of the deposited data

How the results depend on the processing

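The Slc26a7 difference (1425841_at) stayed negative in all 19 alternatives, from −3.45 to −2.69, and 7 of 14 member probe sets kept their sign in all. The median over all 14 member probe sets was −0.76 with poly-A spikes as a covariate, against −0.23. Of all tested probe sets, 4 were called higher and 0 lower (limma, 3473 at an unadjusted p of 0.05). Called higher were 2 with a pseudocount of 1, with no floor or with median centring, 7 with a floor at the 60th percentile, 1 without the eBayes trend, 151 with array weights and 0 with the spike covariate (671 at an unadjusted p of 0.05). Called lower were 1 with a pseudocount of 64, the higher floor, quantile normalization or 1 probe set per gene, 101 with array weights and 2 with the replicate block. Leaving out 1 array gave 0 to 66 higher and 0 to 38 lower, both highest without mesonephros-derived replicate 1, and 2 higher without mesonephros-derived replicate 2. It gave 0 in both directions without mesonephros-derived replicate 3 or any ovary-derived replicate, with 1431 to 5530 at an unadjusted p of 0.05. Of the ion and acid-base lists, 1 gene (Papss2) was called with array weights (1.19 ± 0.22 SE, limma adjusted p = 0.0162), against 0. The cause of these changes was not tested. Whether the replicate numbers pair the samples is not known. Deviations of same-numbered arrays from their group means correlated at 0.02, 0.06 and −0.01. The wider spread of the mesonephros-derived arrays could hide a shared effect, so these values cannot exclude a pairing. With the replicate number as a block 5 probe sets were called higher and the Slc26a7 difference was −3.13 ± 0.46 (SE). Array number and signal near the floor limit all values.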
